A study of Mus musculus with 9 samples.

Results

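Nuclear receptors are transcription factors whose activity is set by small fat-soluble molecules, among them retinoids, thyroid hormone, vitamin D, steroids, oxysterols and fatty acids. Ligand binding exchanges corepressor for coactivator proteins on the receptor, so a gene's response depends on which receptors and which coregulators a cell makes. In fat cells the best known of them is PPARG, the master regulator of adipogenesis, which binds DNA as a heterodimer with a retinoid X receptor. The 37 genes described here are the other side of that system: 32 nuclear receptors, leaving out PPARG, the NR1D pair, the glucocorticoid receptor NR3C1 and the NR4A genes, and 5 main coregulators (Ncor1, Ncoa1, Ncoa2, Ncoa3 and Nrip1). The set is defined by gene names, and was drawn up with earlier results of these data known. All 37 were found by gene name among the 54532 genes of the count and FPKM tables.

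The cells were 3T3-L1, an established mouse preadipocyte line that forms fat cells under hormonal stimulation, in 3 groups of n = 3 libraries. Undifferentiated cells were kept at confluence for 3 days in DMEM with BCS. Differentiated cells then received a differentiation medium with insulin (10 μg/mL), rosiglitazone (a PPARG ligand, 1 μM), dexamethasone (a glucocorticoid receptor ligand, 1 μM) and IBMX (which raises cyclic AMP, 0.5 mM), and Lysfree cells received the same medium with no lysine added. Per the study's methods, the differentiation media were made up with FBS in a DMEM without arginine and lysine, to which arginine and, for the Differentiated group, lysine were added back. RNA of the treated groups was collected at the end of the differentiation period of 3 days, and the collection time of the Undifferentiated cells is not given in the sources used here. The base medium, the serum and possibly the time in culture therefore differed between the Undifferentiated group and the others along with the hormones, and these cannot be told apart, whereas Lysfree and Differentiated cells differed by the added lysine. The labels do not say that the libraries of a group came from separate cultures, so p-values measure only the spread between these libraries.

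Polyadenylated RNA was sequenced, and the libraries held between 15880144 and 21806693 counts on genes (median 17784064). The summed level of 8 adipocyte markers was 306 to 387 FPKM (fragments per kilobase of gene, scaled to the library total) in Undifferentiated, 6620 to 6930 FPKM in Differentiated and 238 to 314 FPKM in Lysfree libraries, and all 8 were at or above 1 FPKM in every group. Lpl, with means of 146, 424 and 188 FPKM in that order, made up most of the Lysfree sum. By group mean Lpl was higher in Lysfree than in Undifferentiated cells, and the rest of the adipocyte markers were lower. The summed level of 8 preadipocyte and fibroblast markers was 4050 to 4390, 1020 to 1030 and 1530 to 1590 FPKM in the same order. Most of the Undifferentiated sum was Col1a1 (means of 1890, 362 and 327 FPKM) and Col1a2 (1280, 199 and 393 FPKM). Thy1 (70.4, 27.8 and 89.1 FPKM) and Vim (602, 382 and 607 FPKM) were not lower in Lysfree than in Undifferentiated cells, while the rest of these markers were. None of the 4 endothelial, 4 epithelial or 4 skeletal muscle markers reached 1 FPKM in any group. Of 5 macrophage markers, Cd68, a lysosomal protein, had group means of 1.65, 4.12 and 4.4 FPKM, the others stayed under 1 FPKM, and Adgre1 and Itgam had 0 counts in all 9 libraries. Their summed level was 1.63 to 1.92 FPKM in Undifferentiated, 3.44 to 5.01 FPKM in Differentiated and 3.62 to 4.85 FPKM in Lysfree libraries, and its part in the results was not tested. In bulk RNA, fewer cells that express a gene and less of its RNA per cell cannot be told apart. Lysfree 1 stood apart from Lysfree 2 and 3: of the 23 genes of the set with a group mean of at least 1 FPKM, 4 (Nr2f6, Esrra, Rxrb and Nr3c2; 17.4%) differed there by over 1.5-fold from the mean of the other Lysfree libraries, against 14.2% of 11837 genes at comparable depth, and 1 gene (Nr3c2) did so in Lysfree 2 and none in any Undifferentiated or Differentiated library. For the genes where Lysfree 1 differed most from the others, changes are given with and without that library.

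Of the 37 genes, 23 had a mean of at least 1 FPKM in a group, and the plot of all levels shows how far the others lay below them. The most abundant of them in Undifferentiated cells were Rxra (54.7 ± 1.98 FPKM; mean ± SD, n = 3 throughout), Thra (53.2 ± 2.77 FPKM) and Rarg (49.7 ± 0.82 FPKM), and the ranges of Rxra and Thra overlapped. Differentiated cells were led by Rxra (62 ± 1.98 FPKM), Esrra (44.6 ± 1.79 FPKM) and Nr1h3 (32.3 ± 0.55 FPKM). In Lysfree cells the vitamin D receptor gene Vdr came first, with 44.5 ± 3.88 FPKM, ahead of Rarg (34.9 ± 6.71 FPKM), Nr1h2 (26.8 ± 4.51 FPKM) and Rxra (26.7 ± 0.563 FPKM). The Lysfree ranges of Rarg (27.1 to 39.1 FPKM), Nr1h2 (21.6 to 29.6 FPKM) and Rxra (26.2 to 27.3 FPKM) overlapped, so their order was within the spread of the libraries.

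**Figure D1:**
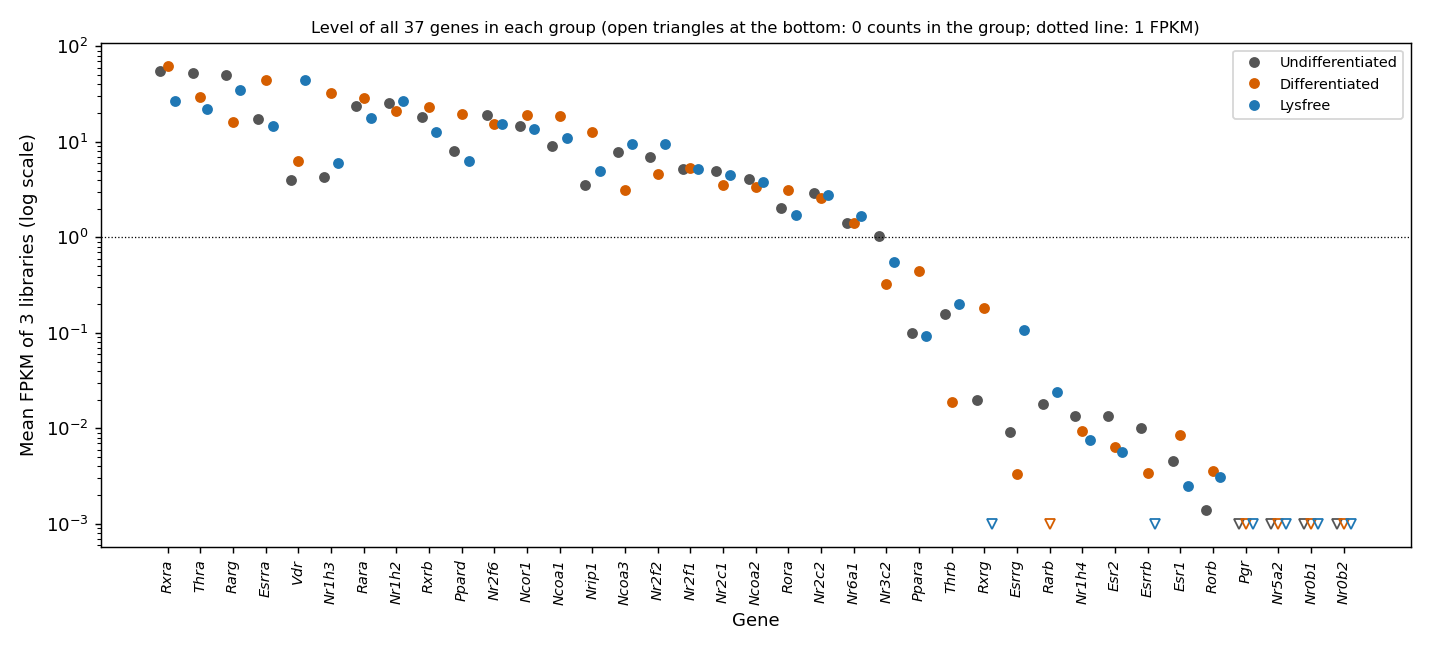
Mean FPKM of 3 libraries (log scale) of each of the 37 genes in the Undifferentiated (grey), Differentiated (orange) and Lysfree (blue) group, with open triangles for groups at 0 counts and a dotted line at 1 FPKM. The 23 genes on the left reach 1 FPKM in a group, Vdr stands at 44.5 FPKM in Lysfree against 4 FPKM in Undifferentiated, and 4 genes on the right have 0 counts in all 9 libraries.

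Differences were tested with edgeR on the counts of all genes, and a gene is said to have risen or fallen only where the Benjamini-Hochberg adjusted p was under 0.05 and the change at least 2-fold (a differentially expressed gene, DEG). Between Differentiated and Undifferentiated cells, 21.8% of 24402 genes tested were DEGs (10.4% higher and 11.4% lower), and among the 37 genes 6 rose (Nr1h3, Nrip1, Esrra, Ppard, Ppara and Rxrg) and 4 fell (Rarg, Ncoa3, Nr3c2 and Thrb). Between Lysfree and Undifferentiated cells, where 14.3% of 23994 genes were DEGs (5.52% higher and 8.76% lower), 2 rose (Vdr and Esrrg) and 1 fell (Thra). Between Lysfree and Differentiated cells, where 18.7% of 24130 genes were DEGs (8.14% higher and 10.5% lower), 6 rose (Vdr, Ncoa3, Rarg, Nr2f2, Thrb and Esrrg) and 7 fell (Nr1h3, Ppard, Esrra, Nrip1, Rxra, Ppara and Rxrg). By the adjusted p alone, 24, 14 and 22 of the 33 genes of the set with a count passed in these comparisons, against 46.1%, 35.1% and 38.5% of all genes tested. The comparisons share libraries with each other, so their lists are not independent.

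Genes at higher levels are called more often. With a group mean of at least 1 FPKM the shares were 7 of 23 (30.4%), 2 of 23 (8.7%) and 9 of 22 (40.9%) in the same order, against 30.2% (14.8% higher and 15.4% lower), 19.6% (8.30% and 11.3%) and 26.0% (11.4% and 14.6%) of all such genes. The median size of the log2 fold change of these genes was 0.62 against 0.60 for all genes in the Differentiated vs Undifferentiated comparison, 0.32 against 0.50 in Lysfree vs Undifferentiated, and 0.74 against 0.56 in Lysfree vs Differentiated. The FPKM of the groups did not overlap for 21 of 23, 14 of 23 and 17 of 22 genes, against 79.1%, 67.8% and 72.0% of all genes at that level. Lists of related genes (targets, enzymes and other coregulators) were written by hand from general knowledge with earlier results known, and are described by counts at 1 FPKM or more, beside these shares of all genes. The plot of log2 fold changes shows all genes of the set at that level, with Nr1h3 and Vdr farthest from 0.

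**Figure D2:**
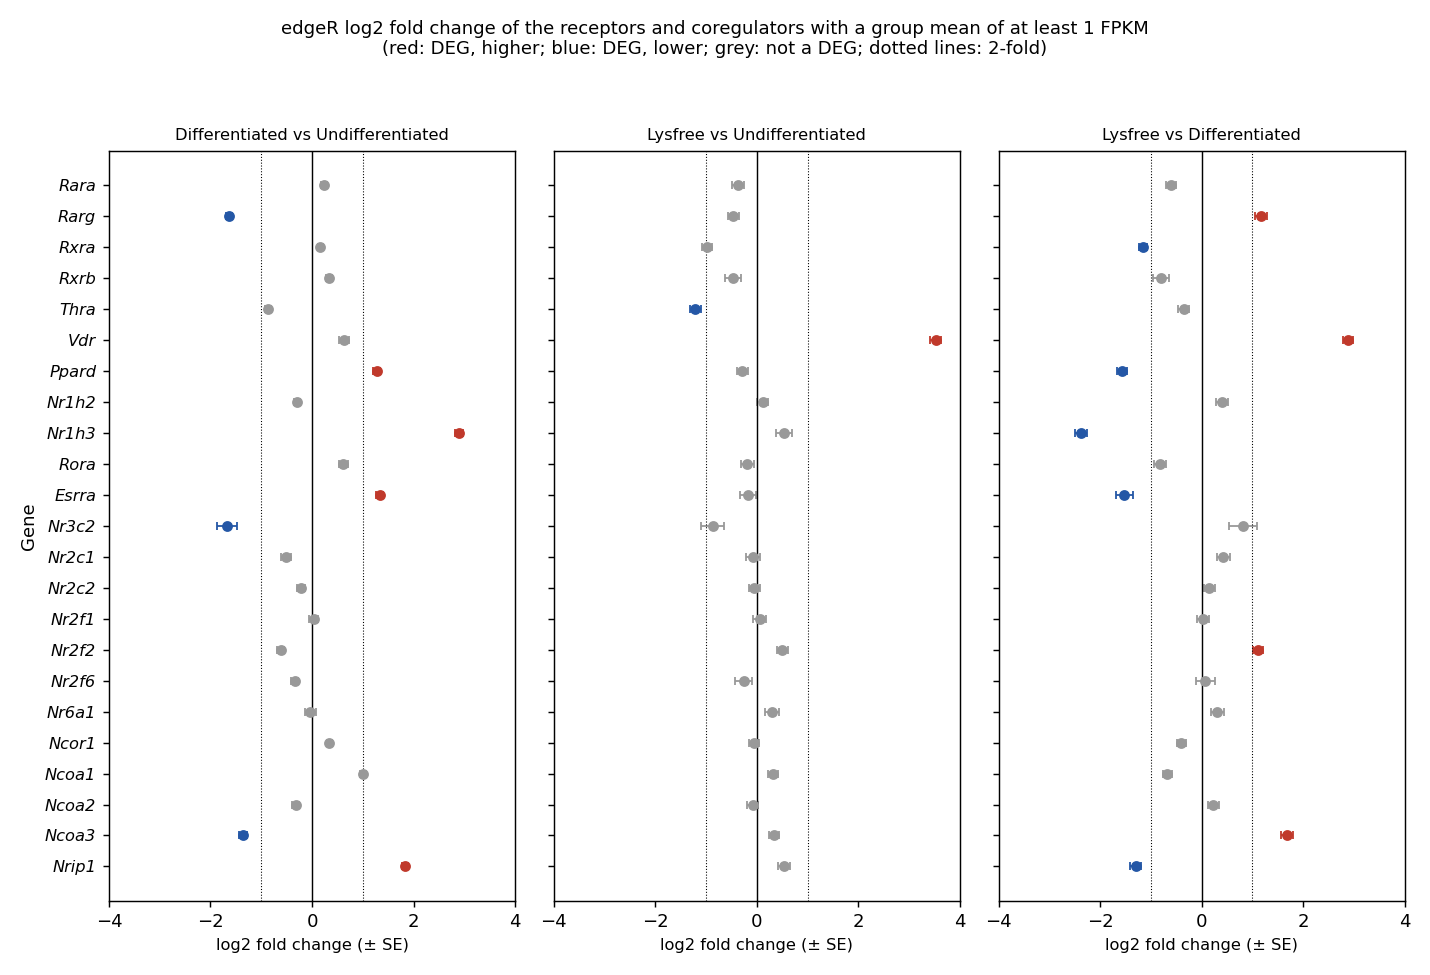
edgeR log2 fold change ± SE (n = 3 libraries per group) of the 23 genes with a group mean of at least 1 FPKM, in the 3 comparisons, with DEGs in red (higher) or blue (lower), others in grey and dotted lines at 2-fold. Differentiated vs Undifferentiated has DEGs on both sides, Lysfree vs Undifferentiated has Vdr at 3.52 and Thra at -1.21 outside the lines and Rxra at -0.98 just inside, and Lysfree vs Differentiated again has DEGs on both sides.

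The promoters of genes whose levels moved are shown first, for the DEGs with at least 1 FPKM whose promoter window holds at most 14 annotated exon bases, using the window nearest the gene's 5′ end. Each is the 250 bases before a RefSeq transcription start on GRCm38.p6 (the mm10 assembly), printed 5′ to 3′ on the gene's strand. Capitals mark matches to a GC box (GGGCGG), the nuclear receptor core motif (AGGTCA) or a C/EBP-ATF element (TGATGCAA), each read on both strands. The windows lie at chr15:97908297-97908546 (Vdr, minus strand), chr19:6921809-6922058 (Esrra, minus strand), chr15:102257523-102257772 (Rarg, minus strand), chr2:27676951-27677200 (Rxra, plus strand) and chr16:76373828-76374077 (Nrip1, minus strand).
Vdr: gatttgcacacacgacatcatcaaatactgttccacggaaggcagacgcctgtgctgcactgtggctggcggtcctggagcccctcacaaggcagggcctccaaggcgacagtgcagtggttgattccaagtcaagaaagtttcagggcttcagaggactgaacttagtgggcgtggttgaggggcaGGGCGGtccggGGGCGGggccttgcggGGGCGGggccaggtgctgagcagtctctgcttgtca
Esrra: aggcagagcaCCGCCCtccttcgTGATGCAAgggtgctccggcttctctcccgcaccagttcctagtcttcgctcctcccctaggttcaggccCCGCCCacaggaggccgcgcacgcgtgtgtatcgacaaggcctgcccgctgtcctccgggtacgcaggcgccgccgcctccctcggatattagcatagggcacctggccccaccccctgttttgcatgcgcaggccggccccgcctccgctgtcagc
Rarg: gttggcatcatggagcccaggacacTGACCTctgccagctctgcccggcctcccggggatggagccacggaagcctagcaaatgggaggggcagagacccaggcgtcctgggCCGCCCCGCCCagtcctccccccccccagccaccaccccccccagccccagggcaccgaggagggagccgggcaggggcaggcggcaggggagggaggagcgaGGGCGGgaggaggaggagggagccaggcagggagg
Rxra: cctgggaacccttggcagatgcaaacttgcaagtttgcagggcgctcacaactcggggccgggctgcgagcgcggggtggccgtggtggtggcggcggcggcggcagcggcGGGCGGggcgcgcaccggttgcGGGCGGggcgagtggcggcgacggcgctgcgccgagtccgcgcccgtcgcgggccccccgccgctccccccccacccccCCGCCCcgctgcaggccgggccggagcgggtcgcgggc
Nrip1: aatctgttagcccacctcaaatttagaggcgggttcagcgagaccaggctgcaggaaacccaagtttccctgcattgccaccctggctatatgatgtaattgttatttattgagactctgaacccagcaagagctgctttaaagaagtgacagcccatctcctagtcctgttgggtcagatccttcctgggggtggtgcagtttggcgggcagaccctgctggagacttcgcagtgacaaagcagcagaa

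The Vdr and Rxra windows lie inside the annotated gene, ahead of a start site further in. The Vdr window held 3 GC boxes and no core motif. Esrra, which was higher in Differentiated than in the other cells, had a TGATGCAA element at -227 to -220 bases from the start, and no other gene of the 34 with a window had that element. Its window also held 2 GC boxes. The Rarg window had a core motif on the opposite strand at -225 to -220 and 3 GC boxes, the Rxra window shown had 3 GC boxes, and the Nrip1 window shown had no match to any motif searched. The other window of Rxra held 2 core motifs, and that of Nrip1 held 2 overlapping GC boxes. RefSeq windows were found for 34 of the 37 genes (54 windows), and there was no entry for Ncoa2, Ncoa3 or Thra. A core motif occurred in 14.8% of these windows against 14% of all 32851 promoters of the same length, a GC box in 44.4% against 32.7%, a CCAAT box in 27.8% against 33.8%, an E-box (CACGTG) in 7.41% against 6.02% and TGACG, the core of the cyclic AMP response element, in 16.7% against 17.8%. TGATGCAA was in 1.85% against 0.791%. None of the 54 windows held the full cyclic AMP element TGACGTCA (1.55% of all promoters), the estrogen-related receptor element TCAAGGTCA (0.387%), the C/EBP palindrome TTGCGCAA (0.164%), direct repeats of AGGTCA spaced by 1 base (0.0335%) or 4 bases (0.0152%), or the palindromic glucocorticoid response element (0.00913%). These are matches of letters in a short window and not binding sites.

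Vdr, on chr15:97854425-97910630, encodes the receptor for the hormonal form of vitamin D. Its FPKM were 4.31, 3.85 and 3.84 in the Undifferentiated libraries, 6.17, 6.2 and 6.62 in the Differentiated libraries, and 48.5, 40.8 and 44.1 in the Lysfree libraries. Every Lysfree library was far above all the others, and the Undifferentiated and Differentiated ranges did not overlap either. Vdr rose 11.5-fold in Lysfree over Undifferentiated cells (log2 fold change 3.52 ± 0.11 (SE), edgeR adjusted p = 5e-22) and 7.35-fold over Differentiated cells (2.88 ± 0.10, edgeR adjusted p = 1.9e-15). Between Differentiated and Undifferentiated cells the difference was 1.55-fold (log2 fold change 0.63 ± 0.09, edgeR adjusted p = 1.3e-12), under the 2-fold threshold. Without Lysfree 1 the Lysfree changes were 3.43 and 2.79 on the log2 scale.

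Vitamin D breakdown starts with CYP24A1, the standard target of an activated vitamin D receptor. Cyp24a1 was at 0 FPKM in 8 of the 9 libraries and at 0.0128 FPKM in Undifferentiated 2, so its RNA was not detectable at this depth in the Lysfree libraries where Vdr was high (Cyp24a1 was singled out after its values were seen). Cyp27b1, which makes the hormonal form, had 1.81 ± 0.113, 0.859 ± 0.229 and 1.79 ± 0.461 FPKM in Undifferentiated, Differentiated and Lysfree cells. It fell in Differentiated against Undifferentiated cells (log2 fold change -1.08) and rose in Lysfree against Differentiated cells (1.11). Of the 8 genes listed for vitamin D and steroid metabolism and their targets, 3 were at 1 FPKM or more, and they gave 1 rise and 1 fall in Differentiated vs Undifferentiated, none in Lysfree vs Undifferentiated, and 1 rise and 1 fall in Lysfree vs Differentiated (DEGs among all genes 30.2%, 19.6% and 26.0%).

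Thyroid hormone receptor α, encoded by Thra on chr11:98740638-98769006, was the main thyroid hormone receptor RNA of these cells. Thra stood at 50.6, 56.1 and 53 FPKM in Undifferentiated, 27.7, 30.3 and 30.8 FPKM in Differentiated, and 18.4, 24.2 and 24.1 FPKM in Lysfree libraries. The 3 groups were in descending order with no overlap. Thra fell 2.31-fold in Lysfree against Undifferentiated cells (log2 fold change -1.21 ± 0.11, edgeR adjusted p = 4.7e-11; -1.12 without Lysfree 1), and was 1.83-fold lower in Differentiated cells (-0.87 ± 0.06, edgeR adjusted p = 2.6e-55), which is under the threshold. The end of Thra shares 263 exon bases (5.7% of its exon length) with Nr1d1 on the other strand, and the strand setting of the counting is not given in the sources used here, so reads of that stretch could belong to either gene. Nr1d1 rose in Differentiated vs Undifferentiated cells (log2 fold change 1.18) and fell in Lysfree vs Differentiated cells (-1.18). Rara, the next gene of the set along chromosome 11, lies 158812 bases from Thra and was not a DEG in any comparison.

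Thrb, the other thyroid hormone receptor gene, was at most 0.277 FPKM in any library. Its counts were 21 to 24 in Undifferentiated, 2 to 3 in Differentiated and 23 to 36 in Lysfree libraries, so the Differentiated libraries were below all others. Summed counts, scaled to library totals, were 8.59-fold lower in Differentiated than in Undifferentiated cells (95% interval 3.95 to 22.2, counting error only) and 11.6-fold higher in Lysfree than in Differentiated cells (5.37 to 29.7). The Lysfree count was highest in Lysfree 1, and without it the edgeR log2 fold change over Differentiated cells was 3.08 in place of 3.40. Thrb made up 0.299 ± 0.0758% of the thyroid receptor FPKM in Undifferentiated, 0.0641 ± 0.0168% in Differentiated and 0.937 ± 0.473% in Lysfree cells. Among listed thyroid hormone enzymes and target genes, Thrsp, a lipogenic regulator, had 3.52 ± 0.718, 12.7 ± 0.425 and 0.0719 ± 0.0459 FPKM in Undifferentiated, Differentiated and Lysfree cells and was a DEG in all 3 comparisons. Hr, a corepressor of the thyroid and vitamin D receptors that thyroid hormone induces in brain, was low. It had 0.264 ± 0.11, 0.723 ± 0.0898 and 1.07 ± 0.276 FPKM in the same order. Hr rose in both Differentiated (log2 fold change 1.39, with both groups under 1 FPKM) and Lysfree cells (2.05) against Undifferentiated cells. Between Lysfree and Differentiated cells it differed by 0.63 ± 0.21 (edgeR adjusted p = 0.018), under 2-fold. At 1 FPKM or more, 3 of 3 genes of that list rose in Differentiated vs Undifferentiated, 1 of 4 rose and 1 fell in Lysfree vs Undifferentiated, and 1 of 4 fell in Lysfree vs Differentiated, against 30.2%, 19.6% and 26.0% DEGs among all genes.

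Retinoic acid acts through the RAR genes, and Rarg and Rara made nearly all of their RNA. Rarg, on chr15:102234938-102257517, had 48.8, 49.7 and 50.5 FPKM in Undifferentiated, 15.1, 17 and 16.4 FPKM in Differentiated, and 27.1, 38.4 and 39.1 FPKM in Lysfree libraries. Lysfree libraries lay between the other groups without touching either, and Lysfree 1 was the lowest of them. Rarg fell 3.13-fold in Differentiated against Undifferentiated cells (log2 fold change -1.64 ± 0.06, edgeR adjusted p = 2e-170) and rose 2.26-fold in Lysfree against Differentiated cells (1.17 ± 0.12, edgeR adjusted p = 6.4e-08; 1.30 without Lysfree 1). Against Undifferentiated cells, Lysfree cells were at -0.46 ± 0.11 on the log2 scale (edgeR adjusted p = 0.0013). Rara, which encodes the broadly expressed RARα, had 24 ± 0.274, 28.7 ± 0.522 and 18 ± 2.13 FPKM in Undifferentiated, Differentiated and Lysfree cells, with groups apart but under 2-fold in each comparison. Rarb was near 0, with at most 4 counts in a library.

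Rarg held a smaller share of the RAR FPKM in Differentiated libraries than in the others. Rarg held 67.4 ± 0.176% of the summed RAR FPKM in Undifferentiated cells, 36 ± 1.81% in Differentiated cells and 65.8 ± 1.91% in Lysfree cells, with Rara holding almost all of the rest. Its share in Lysfree 2 and 3 (66.9% and 66.8%) was close to that of the Undifferentiated libraries (67.2% to 67.5%). The summed RAR FPKM was 72.6 to 74.8 in Undifferentiated libraries, above the others. It was 44.4 to 45.3 in Differentiated libraries and 42.6, 57.4 and 58.5 in Lysfree libraries, which overlapped. Shares and sums were not tested. Among 14 genes listed for retinoid binding and metabolism, only 4 reached 1 FPKM, of which 1 rose in each comparison with Undifferentiated cells, and 1 rose and 1 fell in Lysfree vs Differentiated. Among all genes at that level, 30.2% were DEGs in Differentiated vs Undifferentiated, 19.6% in Lysfree vs Undifferentiated and 26.0% in Lysfree vs Differentiated. Fabp5, a carrier that brings retinoic acid and fatty acids to nuclear receptors, rose in Differentiated vs Undifferentiated (log2 fold change 4.06) and fell in Lysfree vs Differentiated cells (-3.19). Cyp26b1, which degrades retinoic acid, rose in Lysfree against both Undifferentiated (1.85) and Differentiated cells (2.57).

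**Figure D3:**
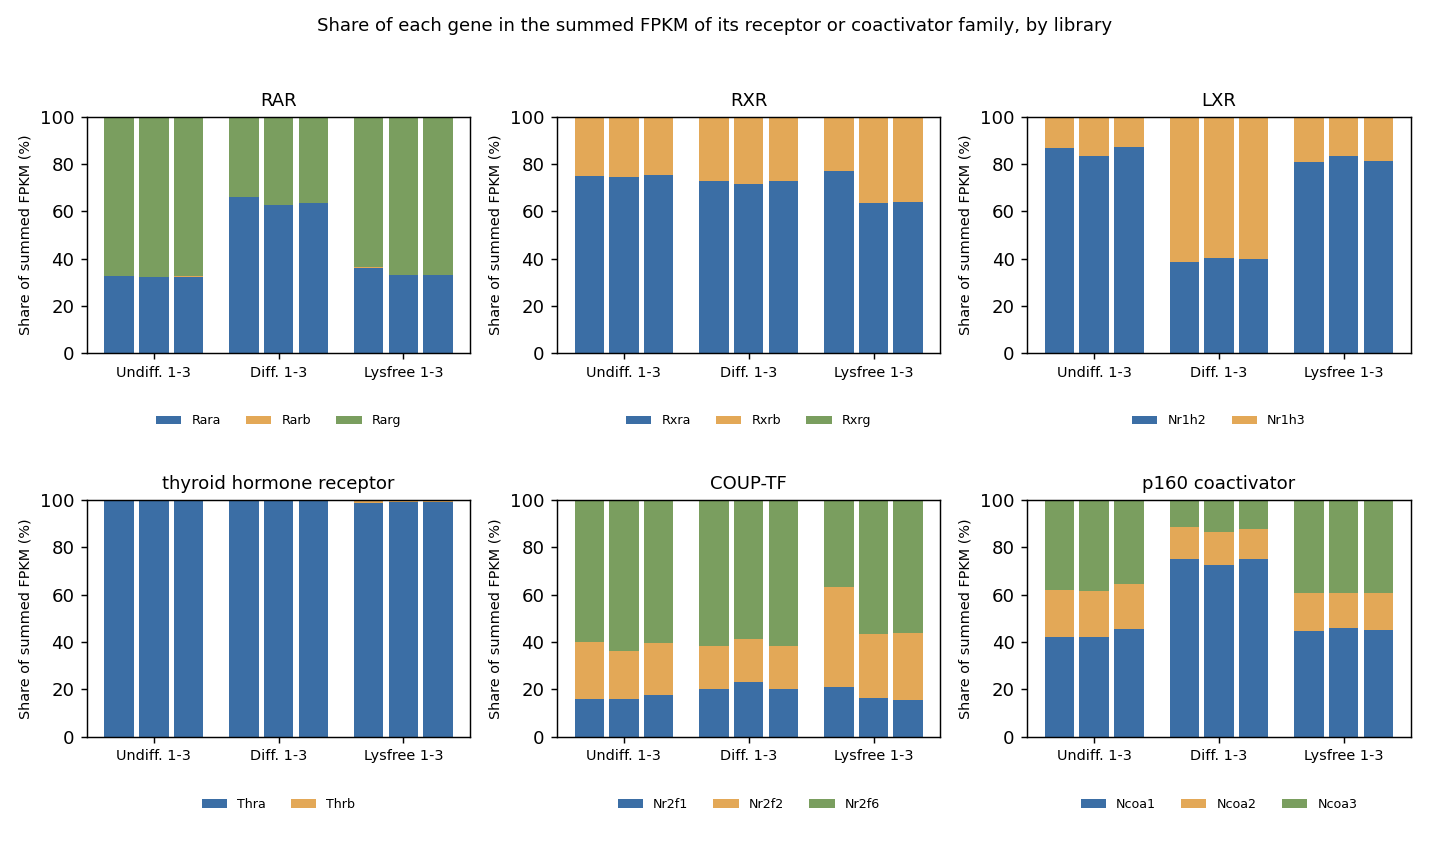
Share of each gene in the summed FPKM of its family (%), 1 bar per library, for retinoic acid receptors (RAR), retinoid X receptors (RXR), liver X receptors (LXR), thyroid hormone receptors, COUP-TF receptors and p160 coactivators. Rara, Nr1h3 and Ncoa1 take most of their family's FPKM in the Differentiated libraries and less in the Undifferentiated and Lysfree libraries, and Lysfree 1 differs from Lysfree 2 and 3 in the RXR and COUP-TF families.

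Retinoid X receptors are the shared partners of RARs, thyroid and vitamin D receptors, PPARs and LXRs. Rxra, on chr2:27676440-27762957, gave 52.7, 56.7 and 54.6 FPKM in Undifferentiated, 64.3, 60.5 and 61.3 FPKM in Differentiated, and 26.8, 27.3 and 26.2 FPKM in Lysfree libraries. The Lysfree libraries were the lowest and were close to each other, Lysfree 1 included. Rxra fell 2.22-fold in Lysfree against Differentiated cells (log2 fold change -1.15 ± 0.08, edgeR adjusted p = 3.2e-10). Against Undifferentiated cells it was 1.98-fold lower (-0.98 ± 0.10, edgeR adjusted p = 2.9e-10), just short of the threshold. Rxrb had 17.5 to 19.5 FPKM in Undifferentiated, 22.5 to 23.8 FPKM in Differentiated and 8.02, 15.6 and 14.7 FPKM in Lysfree libraries, where Lysfree 1 was at 0.53 of the mean of the others. Its differences were under 2-fold, with log2 fold changes of -0.47 in Lysfree vs Undifferentiated and -0.80 in Lysfree vs Differentiated (edgeR adjusted p = 0.013 and 0.00037), and -0.25 and -0.58 without Lysfree 1. The summed RXR level was 72.9 ± 3.08, 85.5 ± 2.17 and 39.5 ± 4.21 FPKM in Undifferentiated, Differentiated and Lysfree cells.

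Rxrg, the RXR gene best known from muscle and brain, was near the limit of detection. It had 3 counts over the Undifferentiated libraries, all of them in a single library, 22 counts over the Differentiated libraries (1 to 14 each) and 0 in all Lysfree libraries. The 95% interval of the library-scaled ratio put it at least 5.55-fold lower in Lysfree than in Differentiated cells (exact binomial, counting error only), and at 7.43-fold lower with the Lysfree group set to a floor of 3 counts. Differentiated 2 held 14 of the 22 counts, and without it these were 2.74-fold and 4.29-fold. The ratio of Differentiated to Undifferentiated library-scaled counts was 8.29 (95% interval 2.49 to 43.3). The edgeR adjusted p for that difference was 0.0074, 0.051 with DESeq2, and 0.21 without Differentiated 2. For Lysfree vs Differentiated it was 0.0038, and 0.06 without that library.

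The liver X receptors sense oxysterols and switch on cholesterol export and fatty acid synthesis. Nr1h3, which encodes LXRα and lies on chr2:91184061-91202834, was at 3.99, 4.88 and 3.87 FPKM in Undifferentiated, 31.8, 32.4 and 32.9 FPKM in Differentiated, and 5.09, 5.92 and 6.82 FPKM in Lysfree libraries. The Differentiated libraries formed a tight group far above the others, and the Lysfree libraries lay just above the Undifferentiated ones without overlap. Nr1h3 rose 7.42-fold in Differentiated against Undifferentiated cells (log2 fold change 2.89 ± 0.08, edgeR adjusted p = 1.6e-253) and fell 5.19-fold in Lysfree against Differentiated cells (-2.38 ± 0.12, edgeR adjusted p = 8.6e-13). Lysfree and Undifferentiated cells differed by 0.53 ± 0.16 on the log2 scale (edgeR adjusted p = 0.0082). Nr1h2, the widely expressed LXRβ, lay within 20.1 to 29.6 FPKM over all 9 libraries and differed by under 2-fold in each comparison. Its log2 fold change was -0.29 in Differentiated vs Undifferentiated (edgeR adjusted p = 2.4e-05) and 0.40 in Lysfree vs Differentiated (edgeR adjusted p = 0.0081). In Lysfree vs Undifferentiated it was 0.12 (edgeR adjusted p = 0.46). Lysfree 1 was at 0.734 of the mean of the other Lysfree libraries for Nr1h2. Nr1h3 thus made up 14.3 ± 2.05% of LXR FPKM in Undifferentiated, 60.3 ± 0.861% in Differentiated and 18.2 ± 1.22% in Lysfree cells.

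Known targets of the LXRs were counted beside them. Of 9 listed targets at 1 FPKM or more, 6 rose and 2 fell in Differentiated vs Undifferentiated (median log2 fold change 2.02, against 0.02 for all genes), 1 rose and 3 fell in Lysfree vs Undifferentiated (median -0.40, against 0.06), and 5 fell in Lysfree vs Differentiated (median -1.56, against 0.03). Among all genes 14.8% rose and 15.4% fell in the first comparison, 8.30% and 11.3% in the next, and 11.4% and 14.6% in the last. Scd1, the stearoyl-CoA desaturase, was the largest, with log2 fold changes of 5.29 and -5.70 in the first and last of these. Lpcat3, which builds polyunsaturated phospholipids, rose by 2.50 and fell by 2.25. Pltp, the phospholipid transfer protein, fell in Differentiated against Undifferentiated cells (-2.52) and in Lysfree against Undifferentiated cells (-1.56). Many of these targets answer to other regulators too, and the part of Nr1h3 in their levels was not tested. The farnesoid X receptor gene Nr1h4, a bile acid sensor, had at most 2 counts in a library.

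The PPARs respond to fatty acids, and the set holds those other than PPARG. Ppard, on chr17:28232700-28301474, encodes the form found in most tissues and had 8.36, 7.95 and 7.83 FPKM in Undifferentiated, 20.5, 18.8 and 20.1 FPKM in Differentiated, and 5.88, 6.64 and 6.61 FPKM in Lysfree libraries. No group overlapped another, and the Lysfree libraries were the lowest. Ppard rose 2.41-fold in Differentiated against Undifferentiated cells (log2 fold change 1.27 ± 0.06, edgeR adjusted p = 1.2e-93) and fell 2.96-fold in Lysfree against Differentiated cells (-1.57 ± 0.10, edgeR adjusted p = 2.1e-11). Lysfree cells were at -0.29 ± 0.11 against Undifferentiated cells (edgeR adjusted p = 0.037). For comparison, Pparg itself had 13.7 ± 1.21, 51.9 ± 2.02 and 8.47 ± 1.72 FPKM in Undifferentiated, Differentiated and Lysfree cells. Ppara, the liver form, had 4 to 13, 17 to 35 and 5 to 9 counts per library in the same order, a ratio of 4.23 (95% interval 2.64 to 7.02) for Differentiated over Undifferentiated and a 4.36-fold lower level (2.65 to 7.48) in Lysfree than in Differentiated cells.

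Listed fatty acid targets of the PPARs went both ways. Of 8 at 1 FPKM or more, 4 rose and 2 fell in Differentiated vs Undifferentiated, 2 of 7 rose in Lysfree vs Undifferentiated, and 2 rose and 4 fell of 8 in Lysfree vs Differentiated, against 30.2%, 19.6% and 26.0% DEGs among all genes. The medians of the log2 fold change were 1.13, 0.32 and -0.13, against 0.02, 0.06 and 0.03 for all genes. Cpt1a, which brings fatty acids into mitochondria, fell in Differentiated vs Undifferentiated (log2 fold change -1.59) and rose in Lysfree vs Differentiated cells (1.28). Angptl4, a secreted inhibitor of lipoprotein lipase, rose in both Differentiated (2.16) and Lysfree cells (1.16) against Undifferentiated cells, and fell in Lysfree vs Differentiated cells (-1.01). The list does not separate targets of Ppard or Ppara from those of PPARG, whose ligand rosiglitazone was in both differentiation media. The part of each receptor in these levels was not tested.

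Esrra, on chr19:6910977-6921813, encodes the estrogen-related receptor ERRα, which drives genes of mitochondria and respiration without a known natural hormone. It was at 16.5, 19.4 and 16.1 FPKM in Undifferentiated, 42.6, 45.2 and 46 FPKM in Differentiated, and 9.21, 17.5 and 17.8 FPKM in Lysfree libraries. The Differentiated libraries were above all others, and Lysfree 2 and 3 fell within the Undifferentiated range while Lysfree 1 was below it. Esrra rose 2.52-fold in Differentiated against Undifferentiated cells (log2 fold change 1.33 ± 0.07, edgeR adjusted p = 3.3e-91) and fell 2.86-fold in Lysfree against Differentiated cells (-1.52 ± 0.17, edgeR adjusted p = 1.5e-07; -1.29 without Lysfree 1). Lysfree and Undifferentiated cells differed by -0.17 on the log2 scale, with a 95% interval of -0.48 to 0.14 (edgeR adjusted p = 0.45). Esrra shares 73 exon bases (1.66%) with Trmt112 on the other strand.

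Of 11 other genes listed as targets of estrogen-related receptors, 10 reached 1 FPKM. All 10 of those rose in Differentiated vs Undifferentiated (median log2 fold change 1.76, against 0.02 for all genes, of which 14.8% rose). Of the 10, 2 rose in Lysfree vs Undifferentiated (median 0.47, against 0.06 and 8.30%), and 8 fell in Lysfree vs Differentiated (median -1.35, against 0.03, with 14.6% lower). This list too was written with earlier results known. Cycs, the electron carrier cytochrome c, had log2 fold changes of 3.90, 1.17 and -2.74 in these comparisons. Idh3a, a citrate cycle dehydrogenase subunit, had 3.36, 1.15 and -2.22. Acadm, which oxidizes medium-chain fatty acids, rose in Differentiated vs Undifferentiated (2.19) and fell in Lysfree vs Differentiated cells (-2.91). These genes are also regulated by others, and the part of Esrra was not tested.

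Among the rarer estrogen-related and steroid receptors, Esrrg was seen almost only in Lysfree cells. Its counts summed to 3 in Undifferentiated, 1 in Differentiated and 37 in Lysfree libraries, with 9 to 19 in each Lysfree library. The Lysfree libraries were above all others. The ratio of library-scaled counts was 13.8 (95% interval 4.36 to 69.8) over Undifferentiated and 36.5 (6.16 to 1480) over Differentiated cells, both at a level near 0.108 FPKM. Lysfree 1 held 19 of the counts, and without it the edgeR log2 fold changes were 3.05 over Undifferentiated (3.58 with it) and 4.18 over Differentiated cells (4.70 with it). Esrrb, the stem cell form, had at most 4 counts in a library, the estrogen receptors Esr1 and Esr2 at most 3, and the progesterone receptor gene Pgr had 0 in all 9 libraries.

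Nr3c2, on chr8:76899442-77245012, encodes the mineralocorticoid receptor, which also binds glucocorticoids. Its levels were low, at 1.12, 0.965 and 1.01 FPKM in Undifferentiated, 0.3, 0.373 and 0.306 FPKM in Differentiated, and 0.765, 0.324 and 0.565 FPKM in Lysfree libraries. The Lysfree libraries were spread widely, with Lysfree 2 inside the Differentiated range. Nr3c2 fell 3.21-fold in Differentiated against Undifferentiated cells (log2 fold change -1.68 ± 0.20, edgeR adjusted p = 4.7e-16). Lysfree cells differed from both under the 2-fold threshold, by -0.87 ± 0.23 from Undifferentiated (edgeR adjusted p = 0.003) and by 0.81 ± 0.28 from Differentiated cells (edgeR adjusted p = 0.028). Whether either passed the threshold turned on a single library. Without Lysfree 1, Nr3c2 passed the threshold as lower than in Undifferentiated cells (-1.19, edgeR adjusted p = 3.8e-08) and differed from Differentiated cells by 0.49 (edgeR adjusted p = 0.12), and without Lysfree 2 it passed as higher than in Differentiated cells (1.08, edgeR adjusted p = 9e-04). Hsd11b1, the enzyme that regenerates active glucocorticoid, rose in Differentiated vs Undifferentiated (log2 fold change 3.32) and fell in Lysfree vs Differentiated cells (-3.05).

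The orphan receptors of the NR2, NR5 and NR6 families have no firmly known natural hormone, and of the 7 in the set Nr2f2 was the only DEG, in Lysfree vs Differentiated cells. At 1 FPKM or more that was 1 of 6 (16.7%), against 26.0% of all such genes. In Differentiated vs Undifferentiated and Lysfree vs Undifferentiated it was 0 of 6, against 30.2% and 19.6%. Nr2f2 (chr7:70351944-70366735) encodes COUP-TFII, known as a brake on adipogenesis, and measured 7.49, 6.44 and 6.72 FPKM in Undifferentiated, 4.41, 4.59 and 4.73 FPKM in Differentiated, and 9.9, 9.01 and 9.47 FPKM in Lysfree libraries. All groups were apart, with the Lysfree libraries highest. Nr2f2 rose 2.16-fold in Lysfree against Differentiated cells (log2 fold change 1.11 ± 0.10, edgeR adjusted p = 5.9e-09), and differed under 2-fold between Differentiated and Undifferentiated (-0.62 ± 0.07, edgeR adjusted p = 2.1e-16) and between Lysfree and Undifferentiated cells (0.50 ± 0.11, edgeR adjusted p = 0.00019). It shares 643 exon bases (7.46%) with the antisense transcript B130024G19Rik, whose mean counts were 89.3, 77 and 50.3 in Undifferentiated, Differentiated and Lysfree libraries. Its relative Nr2f1 (COUP-TFI) had 5.15 ± 0.223, 5.35 ± 0.497 and 5.18 ± 0.324 FPKM, with 95% intervals of the log2 fold change of -0.14 to 0.21, -0.19 to 0.30 and -0.22 to 0.25 in the 3 comparisons.

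Nr2f6, the most abundant COUP-TF relative, had 18.6 to 20.1 FPKM in Undifferentiated, 14.9 to 16.3 FPKM in Differentiated and 8.64, 18.8 and 18.8 FPKM in Lysfree libraries. Lysfree 1 was again the low one, at 0.459 of the mean of the others. The log2 fold change of Nr2f6 in Lysfree vs Differentiated cells was 0.07 (edgeR adjusted p = 0.79), and 0.34 without Lysfree 1 (edgeR adjusted p = 3.2e-06). Of the exon bases of Nr2f6, 54.4% lie within Ocel1, a gene on the other strand. The testicular receptors Nr2c1 and Nr2c2, which repress many receptor targets, had 3.52 to 4.96 and 2.58 to 2.94 FPKM as group means and no DEG. Nr2c2 shares 30.7% of its exon bases with Mrps25. Nr6a1, the germ cell nuclear factor, was at 1.41 to 1.68 FPKM, and its differences did not pass the adjusted p in any comparison. Nr5a2 (LRH-1) and the receptors without a DNA-binding domain Nr0b1 (DAX-1) and Nr0b2 (SHP) had 0 counts in all 9 libraries, and 3 counts in a library are worth between 0.138 and 0.189 CPM, counts being divided by the library total.

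Rora, a clock-linked receptor that opposes the NR1D repressors, had 2.01 ± 0.222, 3.14 ± 0.202 and 1.71 ± 0.178 FPKM in Undifferentiated, Differentiated and Lysfree cells. The Differentiated libraries were above the others, by 1.54-fold over Undifferentiated (edgeR adjusted p = 3.2e-13) and 1.76-fold over Lysfree cells (edgeR adjusted p = 6.6e-06). Rorb had at most 2 counts in a library.

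**Figure D4:**
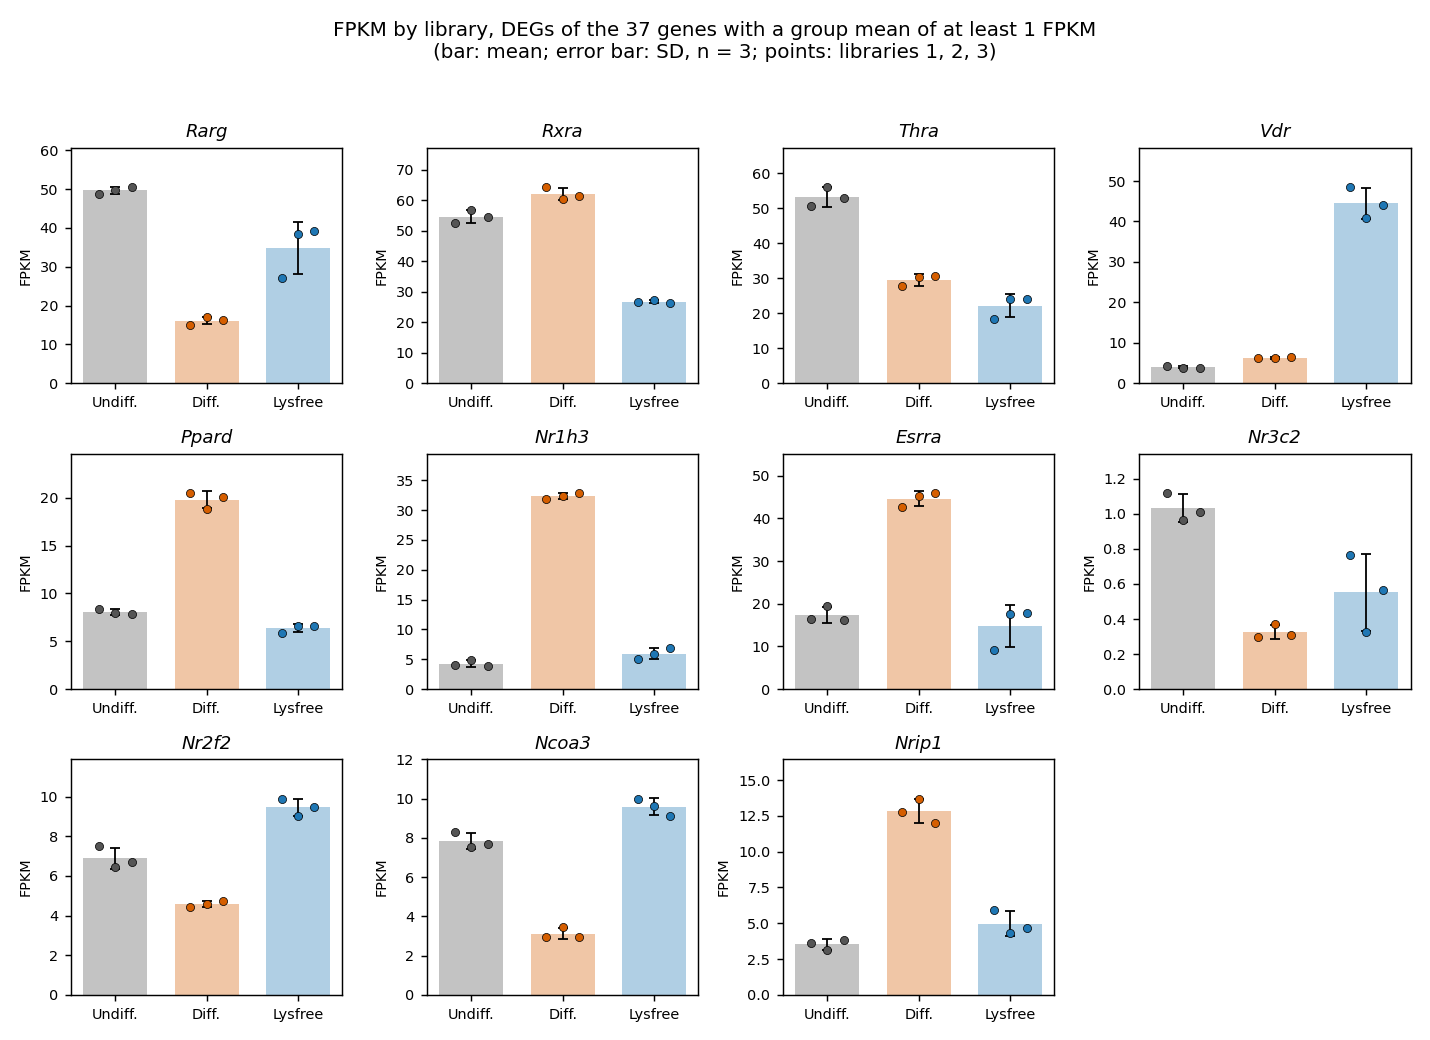
FPKM in each library (points), with group mean (bar) and SD (error bar, n = 3), of the 11 genes that were DEGs in a comparison with a group mean of at least 1 FPKM. Vdr is high in Lysfree alone, Ppard, Nr1h3, Esrra and Nrip1 are highest in Differentiated, and Rarg, Nr3c2, Nr2f2 and Ncoa3 have their lowest mean there.

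Coactivators of the p160 family add acetyl groups to histones through partners once a receptor has bound its ligand. Ncoa3 (SRC-3; chr2:165992636-166073242) had 8.32, 7.51 and 7.7 FPKM in Undifferentiated, 2.97, 3.44 and 2.93 FPKM in Differentiated, and 10, 9.64 and 9.12 FPKM in Lysfree libraries. All groups were apart, the Differentiated libraries lowest and the Lysfree libraries highest. Ncoa3 fell 2.56-fold in Differentiated against Undifferentiated cells (log2 fold change -1.36 ± 0.08, edgeR adjusted p = 6e-66) and rose 3.21-fold in Lysfree against Differentiated cells (1.68 ± 0.11, edgeR adjusted p = 4.2e-11). It shares 154 exon bases (1.95%) with Sulf2 on the other strand, whose mean counts were 7390, 1170 and 2990 in Undifferentiated, Differentiated and Lysfree libraries, and the part of those reads in the result was not tested.

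Ncoa1 (SRC-1; chr12:4247362-4477182) went the other way, with 9.25, 8.16 and 9.85 FPKM in Undifferentiated, 19.3, 18.6 and 17.5 FPKM in Differentiated, and 11.3, 11.3 and 10.5 FPKM in Lysfree libraries. The Differentiated libraries were above all others. Its log2 fold change in Differentiated against Undifferentiated cells was 1.00 ± 0.06 (edgeR adjusted p = 2.1e-62), just under the threshold before rounding, and it passed under several other settings. Ncoa2 (SRC-2) had 4.11 ± 0.291, 3.35 ± 0.394 and 3.77 ± 0.295 FPKM and no DEG. The summed level of these coactivators was 21 ± 1.36, 24.9 ± 1.37 and 24.4 ± 1.09 FPKM, while the share of Ncoa3 was 37.3 ± 1.6% in Undifferentiated, 12.5 ± 0.913% in Differentiated and 39.3 ± 0.059% in Lysfree cells, and that of Ncoa1 43.1 ± 1.98%, 74.1 ± 1.56% and 45.3 ± 0.819%.

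Nrip1 encodes RIP140, a ligand-dependent corepressor that holds back energy expenditure in fat cells, on chr16:76287400-76373827. Its FPKM were 3.59, 3.13 and 3.86 in Undifferentiated, 12.8, 13.7 and 12 in Differentiated, and 5.95, 4.34 and 4.65 in Lysfree libraries. The groups were apart, with Lysfree libraries between the others and Lysfree 1 the highest of them. Nrip1 rose 3.59-fold in Differentiated against Undifferentiated cells (log2 fold change 1.84 ± 0.06, edgeR adjusted p = 4.2e-178) and fell 2.47-fold in Lysfree against Differentiated cells (-1.30 ± 0.11, edgeR adjusted p = 3.4e-09; -1.47 without Lysfree 1). Between Lysfree and Undifferentiated cells the difference was 0.54 ± 0.12 (edgeR adjusted p = 0.00048). Ncor1, the main silencing corepressor of receptors without ligand, was a DEG in no comparison, with 14.8 ± 1.16, 19 ± 1.2 and 13.8 ± 0.417 FPKM and 1.26-fold, 1.04-fold and 1.32-fold differences in the 3 comparisons.

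Beyond these 5, 21 other coregulator genes were counted, and 21, 20 and 21 of them reached 1 FPKM in the 3 comparisons. In Differentiated vs Undifferentiated cells 2 of 21 rose and 2 fell, in Lysfree vs Undifferentiated 1 of 20 rose and 1 fell, and in Lysfree vs Differentiated 1 of 21 rose and 3 fell. Among all genes 30.2%, 19.6% and 26.0% were DEGs, so 4 of 21, 2 of 20 and 4 of 21 lay below those shares. Ppargc1b, a coactivator that works with estrogen-related receptors on mitochondrial genes, was at 0.679 ± 0.0434, 13.3 ± 0.695 and 1.03 ± 0.21 FPKM in Undifferentiated, Differentiated and Lysfree cells, and rose (log2 fold change 4.26) and fell (-3.63) in the comparisons with Differentiated cells. Its relative Ppargc1a had 1.99 ± 0.253, 3.01 ± 0.0555 and 5.75 ± 1.24 FPKM and rose in Lysfree against Undifferentiated cells (1.58). Against Differentiated cells, Ppargc1a in Lysfree cells was at 1.00 ± 0.14 (edgeR adjusted p = 3.3e-06), just under the threshold before rounding. Gps2, a subunit of corepressor complexes, fell in both Differentiated (-1.19) and Lysfree cells (-1.33) against Undifferentiated cells. Of the 5 receptors left out of the set that reached 1 FPKM, Pparg and Nr1d1 rose in Differentiated vs Undifferentiated, Nr4a1 rose in Lysfree vs Undifferentiated, and in Lysfree vs Differentiated Pparg and Nr1d1 fell and Nr1d2 rose.

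**Figure D5:**
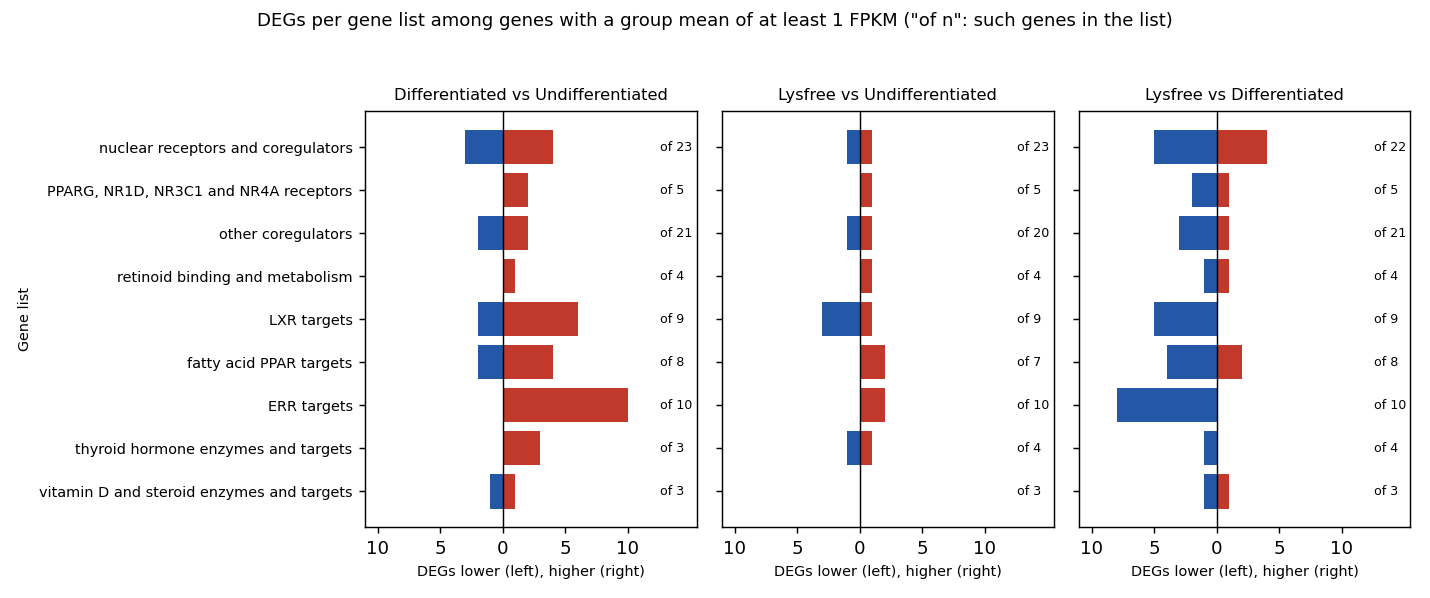
Number of DEGs higher (red, right) and lower (blue, left) in each gene list, among genes with a group mean of at least 1 FPKM, with the number of such genes at the right of each row. Targets of estrogen-related receptors had 10 of 10 genes higher in Differentiated vs Undifferentiated and 8 of 10 lower in Lysfree vs Differentiated, and the 23 or 22 nuclear receptors and coregulators had DEGs in both directions in each comparison.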

How the data were processed

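RNA-seq of 9 polyA-enriched 3T3-L1 libraries was used, and conditions were taken from the sample labels. Per the labels' processing notes, the authors mapped reads to mm10 with HISAT2 2.0.5 and used featureCounts 1.5.0-p3, and deposited raw counts per gene (not normalized). The annotation release and the strand setting are not given in the sources used here. The authors also deposited FPKM, which matched counts per gene length and library size up to a factor of 0.932 to 1.04 in each library. FPKM were used for levels and family shares, counts for tests.

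edgeR 4.0.16 (R 4.3.3; TMM, glmQLFit, glmQLFTest) was run on the 6 libraries of each comparison, for every gene counted at least once among them, with Benjamini-Hochberg adjustment over all genes tested. DEGs had an adjusted p under 0.05 and at least a 2-fold change. SE is the log2 fold change over the square root of F. The comparisons were fitted separately, so sizes of p are not compared between them. An exact permutation test of 3 against 3 libraries cannot go below 0.1. Ratios of summed counts carry exact 95% binomial intervals (counting error only), with a floor of 3 counts over a group. Full values are given for DEGs with a group mean of at least 1 FPKM, and other genes by levels and counts. Genes of related lists are named where among the 4 largest DEGs of their list, at 1 FPKM or more, in at least 1 comparison. For some of these genes the changes in other comparisons are given too. Cyp24a1 was named after its values were seen. Exon overlaps came from GENCODE vM21, which held all 37 gene identifiers. The genes, lists and motifs were chosen with earlier results of these data known. The scripts were tested on simulated data. Alternatives were DESeq2 1.42.0, other normalizations and filters, all libraries in a single fit, a replicate block, limma 3.58.1 on log2 FPKM with a pseudocount of 1 or 0.1, no fold threshold, and leaving out each library.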

Additional observations from a re-analysis of the deposited data

How the results depend on the processing

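The 26 DEG calls of the 37 genes were recomputed under each alternative, which gave 378 values (a gene that a filter removed gave none). All 378 kept their direction and 360 their side of the thresholds. The 18 that did not were of Rxrg, Thrb, Ppara, Nr3c2, Esrrg and Nr2f2, mostly with limma on log2(FPKM + 1), where the pseudocount shrinks low genes. Leaving out 1 library at a time gave 5 to 7 rises, 4 to 4 falls and 5037 to 5161 DEGs among all genes in Differentiated vs Undifferentiated (6, 4 and 5329 with all libraries), 2 to 2, 1 to 3 and 3093 to 3448 in Lysfree vs Undifferentiated (2, 1 and 3426), and 6 to 7, 6 to 7 and 4120 to 4485 in Lysfree vs Differentiated (6, 7 and 4507). The 3 falls came without Lysfree 1, when Rxra and Nr3c2 joined Thra. The 7 rises in Lysfree vs Differentiated came without Lysfree 2, when Nr3c2 joined. There were 2 falls without Undifferentiated 1 or Lysfree 2. In Lysfree vs Undifferentiated, 2 falls (Rxra with Thra) were given by DESeq2, the median of ratios, a minimum of 10 counts per library, limma with either pseudocount and the edgeR filter on expression, and all of these but the first pair gave 1 rise, without Esrrg. The minimum of 10 counts left 3488, 2244 and 2891 DEGs among all genes, in the order of comparisons above, and limma on log2(FPKM + 1) gave 2726, 1474 and 2198, with 2 falls of the 37 genes in the first and 3 rises in the last. Without a fold threshold, 11260, 8428 and 9280 genes passed, with 13 rises and 11 falls, 7 and 7, and 13 falls in the last. The rises in the last were of Esrrg, Ncoa3, Nr1h2, Nr2c1, Nr2f2, Nr3c2, Rarg, Thrb and Vdr. The replicate numbers did not pair the libraries (correlations of deviations from the group means -0.197 to 0.208), and with a replicate block Rxrg had an adjusted p of 0.053 (edgeR) in Differentiated vs Undifferentiated while Ncoa1 passed the threshold there. Ncoa1 also passed in that comparison with DESeq2, the median of ratios, all 9 libraries in a single fit and limma on log2(FPKM + 0.1). Counts of a few reads limit what can be said of Rxrg, Esrrg, Thrb and Ppara. Leaving out single libraries for Nr2f6, Nr3c2 and Rxrb in the Lysfree comparisons, and for the lower bound of Rxrg, was added after seeing the data. Of these, Nr2f6 in Lysfree vs Differentiated (0.07, not a DEG) was at -0.10 without Lysfree 2 or 3 and at 0.34 without Lysfree 1, and the cause was not tested.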
